A study of Mus musculus with 21 samples.

Results

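The interferon-stimulated genes are genes that cells switch on when an interferon reaches them. A list of 39 of them was followed here through the host and tumor cells of mouse melanomas and of lungs, taken as a list of gene names drawn up with earlier results of these data known, and 37 of the 39 were among the 32285 genes of the count table. Mx1 and Mx2 were not analysed here. The cells came from mT/mG mice, in which every host cell carries the red protein tdTomato, with no Cre in use. Fragments of the MT-ret melanoma were placed under the skin, the primary tumor was cut out and lung metastases arose on their own. Host cells of the tumor microenvironment (TME) were sorted as tdTomato+ from primary tumors and from lung metastases, with or without removal of CD45+ cells, and which of the gates was used for a library is not given. Malignant melanoma (MM) cells were sorted as tdTomato-. Lungs of mice without a tumor (unchallenged lung) were the control, and no skin without a tumor was in the set, so that in primary tumor against lung the tumor and the tissue of origin cannot be told apart. The labels give lung as the tissue of the primary tumors too, whereas the cell annotation gives skin. All libraries were single-cell RNA libraries of cryopreserved suspensions, some of which (replicate 1-3) pool mice. The library called unchallenged lung replicate 1 carries another replicate number in the cell annotation and was tied to its label only as the lung name left over.

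Of 24 library names 5 held the same cells as another name, although they name other mice. They were lung metastasis TME replicates 7 and 8 and primary tumor TME replicates 7 and 8, which repeated replicates 5 and 6 of the same tissue, and lung metastasis MM replicate 6, which held the 1036 cells of lung metastasis TME replicate 6. Each was counted once, under the TME replicate 5 or 6 name, so the mouse of these 4 libraries, and for lung metastasis TME replicate 6 also the sort, is uncertain. In all, 100359 cells in 16 libraries remained, 12 of them of host tissue, with 303 to 30419 cells each. Median depth was 1203 to 5356 unique molecular identifiers (UMIs, counted molecules) per cell, and 3 libraries were shallow (unchallenged lung replicate 6, primary tumor TME replicate 6 and primary tumor MM replicate 4, with medians of 1605, 1203 and 1654). No 2 of the different libraries shared more than 227 cell barcodes, with a median of 1. Cells were grouped by clustering from which the interferon genes had been left out, and each cluster was named by its markers, so that a name such as large vessel endothelial stands for cells like that type. Possible doublets were not removed. Levels are given as counts per 1000000 UMIs (CPM) over all cells of a type in a library, and a type entered a comparison with libraries of at least 20 cells.

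Interferons act through cell surface receptors, of which 2 kinds are described here. Type I interferons, such as interferon beta, signal through Ifnar1 and Ifnar2 to a complex that holds Stat2 and Irf9 and binds the interferon-stimulated response element (ISRE). Interferon gamma, made mainly by NK and T cells, signals through Ifngr1 and Ifngr2 to the gamma-activated site (GAS) and raises Irf1, which itself binds ISRE-like elements. The products block viral translation (Ifit family), tag proteins (Isg15), make the oligoadenylates that switch on an RNA-cutting enzyme (Oas2 and Oas3), hold budding virus at the membrane (Bst2) or attack vacuoles that hold microbes (the GBP and IRG families of GTPases).

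Promoter stretches are shown for the members on which the comparisons turn, the GTPases Gbp2, Gbp3, Gbp7, Igtp and Irgm1 and the factor Irf1, all called together in endothelial cells, and for Isg15, Ifit3, Cxcl10 and Bst2, none of which was called with them in lung metastases. They are RefSeq sequences on GRCm38.p6, written 5′ to 3′ along the gene, with ISRE and GAS motifs in capitals. An ISRE was read as GAAA, any 2 bases and GAAA, or on the other strand as TTTC, any 2 bases and TTTC. A GAS was read as TTC, any 3 bases and GAA, which is the same on both strands. Motifs can overlap, as in Bst2.
Gbp2: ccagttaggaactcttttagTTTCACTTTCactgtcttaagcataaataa
Gbp3: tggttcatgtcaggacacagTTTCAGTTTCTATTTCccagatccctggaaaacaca
Gbp7: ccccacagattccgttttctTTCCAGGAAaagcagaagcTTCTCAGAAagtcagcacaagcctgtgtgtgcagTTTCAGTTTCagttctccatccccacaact
Igtp: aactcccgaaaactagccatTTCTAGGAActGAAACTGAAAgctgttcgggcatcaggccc
Irgm1: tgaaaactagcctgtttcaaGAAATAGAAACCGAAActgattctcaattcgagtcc
Irf1: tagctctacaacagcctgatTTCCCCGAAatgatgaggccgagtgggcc
Isg15: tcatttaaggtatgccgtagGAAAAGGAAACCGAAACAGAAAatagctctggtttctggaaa
Ifit3: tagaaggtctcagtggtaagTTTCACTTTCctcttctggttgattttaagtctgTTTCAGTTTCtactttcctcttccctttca
Cxcl10: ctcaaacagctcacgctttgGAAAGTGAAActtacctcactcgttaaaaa
Bst2: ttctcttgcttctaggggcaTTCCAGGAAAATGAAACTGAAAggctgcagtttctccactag
The stretches lie at chr3:142620584-142620633, plus strand (Gbp2), chr3:142559979-142560034, plus strand (Gbp3), chr3:142530210-142530312, plus strand (Gbp7), chr11:58199491-58199551, plus strand (Igtp), chr11:48871415-48871470, minus strand (Irgm1), chr11:53769904-53769952, plus strand (Irf1), chr4:156200855-156200916, minus strand (Isg15), chr19:34583353-34583436, plus strand (Ifit3), chr5:92349073-92349122, minus strand (Cxcl10) and chr8:71537567-71537628, minus strand (Bst2). Each lies within the 250 bases before to 50 bases after the gene's start. A promoter of these 300 bases was at hand for 30 members, and 18 of them (60%) held an ISRE, against 3.99% of the 27018 genes with a promoter. A GAS was found in 9 (30%), against 9.55% of all. Of the GBP and IRG GTPases with a promoter, 6 of 6 held an ISRE and 3 a GAS, and the stretch of Irf1 held a GAS and no ISRE. The stretches of Gbp2, Gbp3 and Irgm1 held ISREs only, as did those of Isg15, Ifit3 and Cxcl10, and that of Bst2 held both. A match describes the letters and is not evidence of a site in use.

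Over libraries of all tissues, capillary endothelial cells and neutrophils had the highest median RNA of these genes. The summed CPM of the 37 members had its highest median over libraries in capillary endothelial cells (3460, n = 8), followed by neutrophils (2655, n = 10), monocytes (2006, n = 10), aerocyte capillary endothelial cells (1970, n = 5) and large vessel endothelial cells (1835, n = 11). The order depends on which tissues a type was found in, since capillary cells had no primary tumor library and 7 of the 11 large vessel libraries were of tumors, whereas in unchallenged lung alone large vessel cells had 2981 to 3928 CPM. The ranges of these neighbours overlapped, from 1774 to 4977 in capillary endothelial cells and from 930 to 4326 in neutrophils. Below them came T cells (1514), B cells (1342), NK cells (1088), C1q macrophages (1058), fibroblasts (1038), alveolar macrophages (1011), ciliated cells (893), club or secretory cells (481), alveolar type 2 cells (322) and a cluster led by Col2a1 and Cspg4 (304). The alveolar type 2 median is of 3 libraries at 300 to 1271 CPM, so its place is uncertain. MM cells were lowest, with a median of 271 and a range of 235 to 421 over 5 libraries, which did not overlap with that of the endothelial types or of the neutrophils.

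The 8 GTPases shared their highest cell type, Rsad2 and Cmpk2 shared another, and the other groups of members were spread over several. All 8 GBP and IRG GTPases had their highest median in capillary endothelial cells, led by Gbp7 (297 CPM), Iigp1 (249), Gbp4 (208) and Gbp2 (172), with Igtp at 90.3, Irgm1 at 84.3, Gbp3 at 57.0 and Gbp5 at 28.6. These medians run over the libraries of all tissues. In unchallenged lung alone the large vessel cells had higher means than the capillary cells for Iigp1 (484 against 431 CPM), Gbp4 (315 against 301), Gbp3 (79.6 against 71.4) and Gbp5 (75.5 against 33.1). Neutrophils were highest for 14 members by the median. These were Rsad2 (viperin, 314 CPM), Oasl2 (293), Isg15 (236), Irf1 (223), Rtp4 (147), Irf9 (109), Oas3 (91.5), Ifit1 (72.9), Cmpk2 (72.7), Isg20 (61.6), Ifit3 (57.5), Oasl1 (43.3), Oas2 (40.4) and Ifit3b (30.3). Rsad2 was at 25.6 CPM in the next type, the monocytes, and thus stood furthest apart in neutrophils among these. Ifit3 and Ifit3b are paralogs, and how reads were divided between them was not tested, so their separate levels are uncertain.

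Capillary endothelial cells also led for Parp14 (173 CPM), Xaf1 (105), Stat2 (98.0), Ddx58 (RIG-I, 88.0), Ifih1 (MDA5, 69.7) and Ifi44 (62.0). Monocytes were highest for Zbp1, a sensor of left-handed nucleic acid (149), Irf7, the factor that amplifies type I interferon (112), Oas1a (51.9) and the chemokine Cxcl10 (9.43). Ciliated cells were highest for Ifi35 (246) and Usp18, which removes Isg15 from proteins (127), aerocytes for Bst2, with capillary endothelial cells next (439), T cells for Ifit2 (28.7) and large vessel endothelial cells for the chemokine Cxcl9 (7.58). Of these, Usp18 stood apart most, at 25.8 CPM in the next type. The medians are of libraries from all tissues and are levels, with no test between types.

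**Figure D1:**
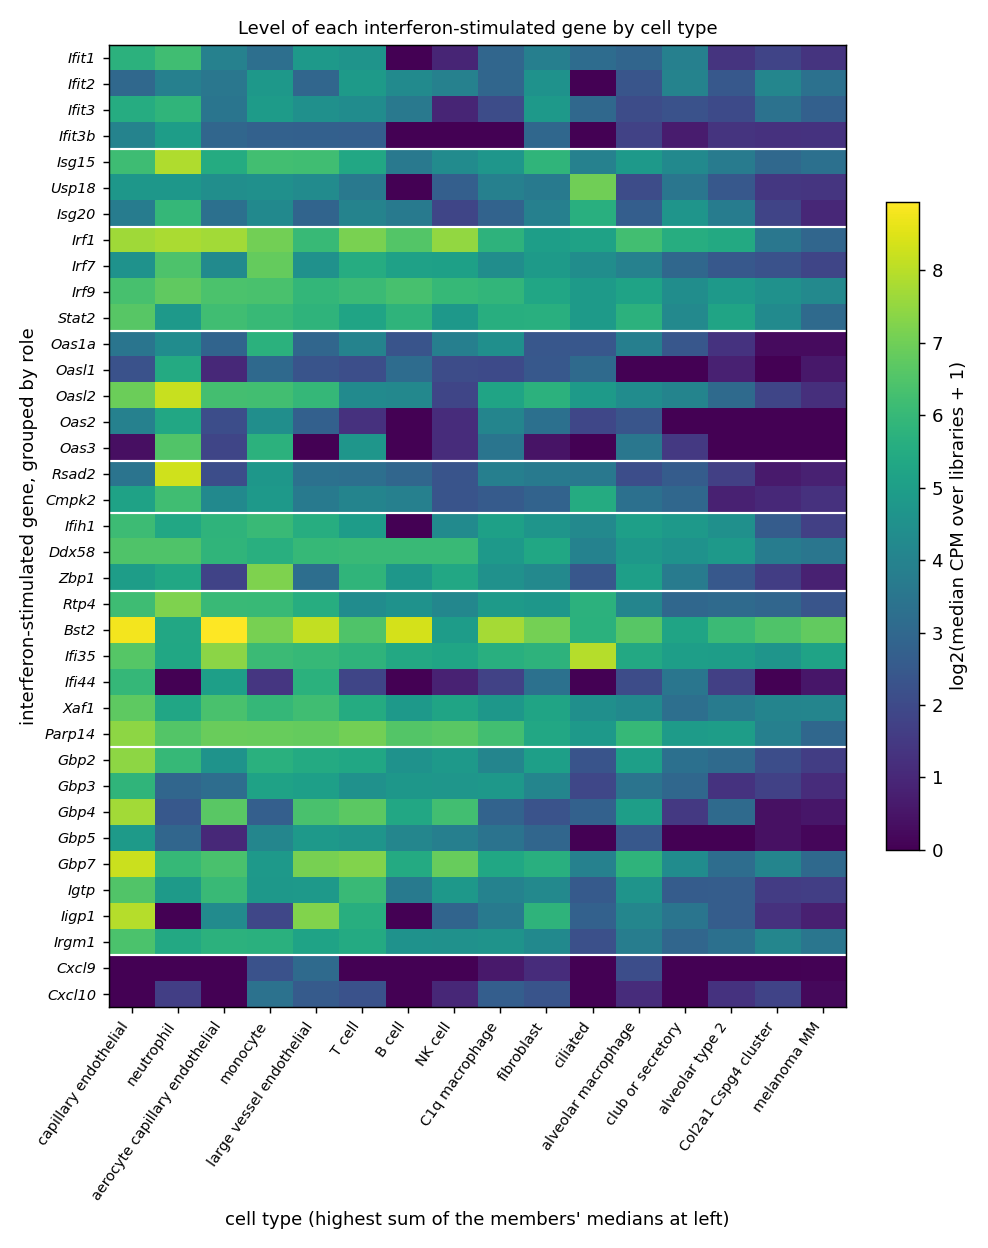
Level of the 37 interferon-stimulated genes (rows, grouped by role) in 16 cell types (columns), as log2 of the median CPM over libraries plus 1. The GTPases at the bottom are brightest in the capillary endothelial column, Isg15, Oasl2 and Rsad2 in the neutrophil column, and the MM column is darkest.

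Of the interferons themselves, hardly any were counted. Ifng gave 2255 UMIs in all cells, 1603 of them in NK cells and 372 in T cells. In NK cells it was at 249, 233 and 105 CPM in unchallenged lung and at 262 and 518 CPM in lung metastasis. Ifnz gave 51 UMIs, 46 of them in MM cells, and Ifnk 34 UMIs, 20 of them in MM cells. Ifnb1 gave 32 UMIs in 9 cells, all C1q macrophages. The genes Ifna1, Ifna2, Ifna4, Ifne, Ifnl2 and Ifnl3 were at 0 UMIs, which over all cells allows up to 0.00914 CPM, for counting error only.

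To see whether the members differ between the tissues within a cell type, the UMIs of each type and library were summed and tested with edgeR's quasi-likelihood test, with Benjamini-Hochberg adjustment over all genes tested and a gene called at an adjusted p under 0.05. There were 23 such comparisons. At least 1 member was called in 6 of them and none in 17. By their names, metastasis and primary tumor libraries numbered 5 or 6 share a mouse, which the repeated cells leave uncertain, those numbered 1-3 share mice in part, and the lungs came from other mice. In whole tissue or in sums over a type, fewer responding cells and less RNA per cell cannot be told apart.

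The clearest difference was in the cluster named large vessel endothelial. There the GBP and IRG GTPases, best known as targets of interferon gamma, were lower in both tumor sites than in unchallenged lung. The vessel markers of this cluster differed between the tissues too, as given below, so the name may not stand for the same cells in each. The summed members were at 3928, 2981, 3912 and 3573 CPM in the unchallenged lungs (replicates 1, 4, 5 and 6), at 1349, 1422 and 1941 CPM in lung metastases (replicates 4, 5 and 6) and at 1835, 1624, 1562 and 1453 CPM in primary tumors (replicates 1-3, 4, 5 and 6). No tumor library reached the lowest lung library. The summed GTPases were at 904 to 2248 CPM in lung, against 306 to 573 CPM in metastases and 394 to 662 CPM in primary tumors. The sum of Bst2, Rtp4, Ifi35, Ifi44, Xaf1 and Parp14 was at 701 to 1098 CPM in lung, 465.8 to 707 CPM in metastases and 531 to 650 CPM in primary tumors.

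**Figure D2:**
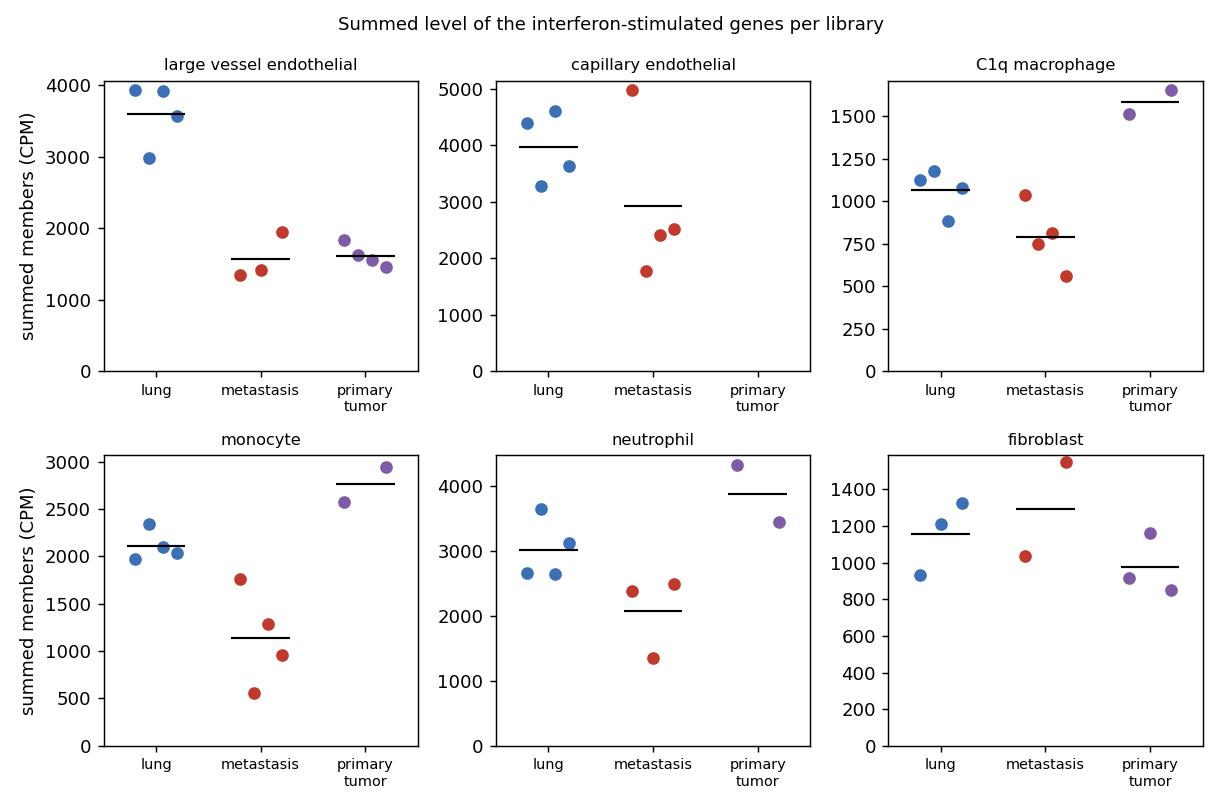
Summed CPM of the 37 members (vertical axis) in each library (points) by tissue for 6 cell types, with the mean as a bar. Large vessel endothelial cells of both tumor sites lie under all 4 lungs, whereas C1q macrophages and monocytes are highest in primary tumors.

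Across all 11 libraries of large vessel cells the members with the highest mean level were Bst2 (334 CPM), Iigp1 (280 CPM), Gbp7 (164 CPM), Gbp4 (163 CPM) and Parp14 (116 CPM). The lowest were Oas2 (7.89 CPM), Ifit2 (6.78 CPM), Oas1a (6.64 CPM), Oasl1 (4.44 CPM) and Oas3 (2.50 CPM).

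In lung metastasis against unchallenged lung, 9 of the 30 members tested in large vessel endothelial cells fell and none rose, where 8.67% of all 8479 genes were called and 3.08% fell. The 9 were all 8 GTPases and Irf1. The median log2 fold change was -0.82 over the 30 members and 0.01 over all genes. By DESeq2, which called 3.32% of all genes, 8 fell.

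Gbp2, a guanylate-binding GTPase, was at 170, 166, 239 and 224 CPM in the lungs and at 38.8, 36.0 and 41.6 CPM in the metastases. The groups lay far apart, and the log2 fold change was -2.29 ± 0.34 (SE, edgeR adjusted p = 0.000639). Gbp4 was at 323, 148, 455 and 335 CPM in lung against 67.9, 68.1 and 83.2 CPM, a log2 fold change of -2.03 ± 0.35 (edgeR adjusted p = 0.00168). Here too the lowest lung stood above every metastasis, although the lungs spread widely. Igtp, an immunity-related GTPase that works at vacuole membranes, was at 158, 72.0, 158 and 156 CPM in lung and at 0, 27.5 and 22.0 CPM in metastases. Its log2 fold change was -2.46 ± 0.42 (edgeR adjusted p = 0.00151), and the 0 is of a library of 23 cells in which a count of 0 allows up to 29.1 CPM. Irgm1, which steers the other members of that family, was at 112, 64.8, 69.9 and 81.3 CPM against 29.1, 20.6 and 26.9 CPM (-1.68 ± 0.32, edgeR adjusted p = 0.00312).

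Irf1, the factor that drives much of this group, was at 172, 220, 178 and 173 CPM in lung and at 116, 64.7 and 46.5 CPM in metastases, a log2 fold change of -1.37 ± 0.29 (edgeR adjusted p = 0.00716). The groups did not overlap. Gbp3 fell by 1.62 ± 0.35 on the log2 scale (edgeR adjusted p = 0.0076) and Gbp7 fell by 1.11 ± 0.32 (edgeR adjusted p = 0.0383), both without overlap. Gbp5 (-1.73 ± 0.47, edgeR adjusted p = 0.0320) and Iigp1 (-2.06 ± 0.54, edgeR adjusted p = 0.0264) passed the test with groups that met, because 1 lung of Iigp1 lay at 140 CPM and 1 metastasis of Gbp5 at 67.9 CPM. With the replicate number as a replicate block the last 2 did not pass (adjusted p = 0.0908 for Gbp5 and 0.0664 for Iigp1).

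Isg15, Ifit3, Irf7, Bst2 and Cxcl10 gave no call in the same cells. Isg15 was at 134, 73.8, 68.0 and 30.5 CPM in lung and at 9.70, 60.1 and 73.4 CPM in metastases (log2 fold change -0.35 ± 0.40, edgeR adjusted p = 0.646). Ifit3 gave -0.61 ± 0.35 (edgeR adjusted p = 0.311), Irf7 0.48 ± 0.42 (edgeR adjusted p = 0.523) and Bst2 -0.57 ± 0.34 (edgeR adjusted p = 0.322). Cxcl10 was at 377 CPM in a single lung and at 0 to 35.6 CPM in the others, and gave -4.34 ± 1.52 (edgeR adjusted p = 0.0870). These groups overlapped, and a p that misses the threshold does not show that the levels were alike.

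**Figure D3:**
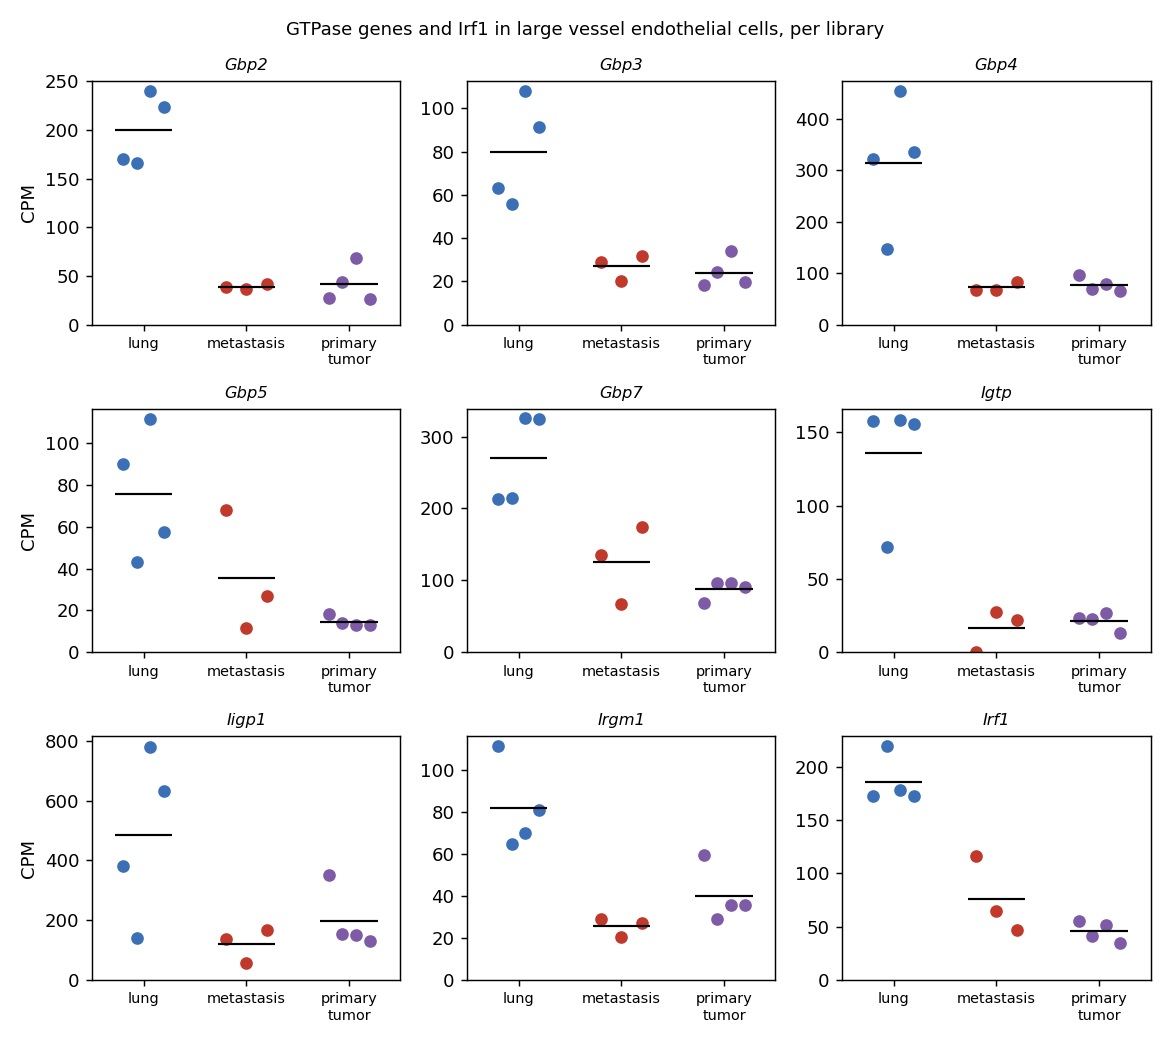
CPM of the 8 GTPase genes and Irf1 (panels) in large vessel endothelial cells of each library (points) by tissue, with the mean as a bar. For Gbp2 the lungs lie at 166 to 239 CPM and all tumor libraries at 26.5 to 68.1 CPM.

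The large vessel cells themselves differed between the tissues. The cluster held 761 cells of lung, 754 of metastasis and 539 of primary tumor, and its defining marker Vwf was at 3399 to 4643 CPM in lung, 889 to 3338 CPM in metastasis and 592 to 846 CPM in primary tumor. Slc6a2, which led the cluster, was at 1343 to 2208 CPM, 247 to 1727 CPM and 31.2 to 104 CPM in the same order. The summed large vessel markers ranged from 6445 to 7999 CPM in lung, from 1706 to 6803 CPM in metastases and from 2114 to 3086 CPM in primary tumors, and those of tumor blood endothelium from 3811 to 4933 CPM, 4115 to 4699 CPM and 6737 to 7593 CPM. Summed capillary markers were at 7047 to 11875 CPM, 5275 to 9093 CPM and 4331 to 4992 CPM in the same order. In every tumor library the capillary sum exceeded the large vessel sum. It did so too in lung replicates 1, 4 and 6 (8470, 11875 and 8734 CPM against 6823, 6445 and 7999 CPM). In lung replicate 5 it did not (7047 against 7120 CPM). In every primary tumor library the tumor blood endothelium sum was above the large vessel sum, and in every lung it was under it. Over all cells of the cluster, 7 of 9 large vessel and 9 of 9 capillary markers were raised. Nearly all primary tumor endothelial cells fell in this cluster (7 were capillary). The levels of the vessel markers thus moved with the tissue, and their part in the result was not tested. When all endothelial clusters were put together, chosen after seeing the data, none of 32 members was called between metastasis and lung, where 3.4% of all genes were called, Gbp2 being at -0.78 (edgeR adjusted p = 0.440). MM markers, summed, were at 68.4 to 88.0 CPM in lung and at 650 to 9478 CPM in metastases, and their part in the result was not tested.

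One library weighed heavily. Without lung metastasis replicate 5, which held 619 of the metastasis cells and had the lowest level of Vwf, 3 members fell (9 with it), where 1.69% of all genes were called, and leaving out any other library gave 6 to 11. Without unchallenged lung replicate 5 the number was 6.

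Against unchallenged lung, in primary tumor, 14 of the 30 members fell in the cluster named large vessel endothelial and none rose. There 21.7% of all genes were called and 11.3% fell. The primary tumor cells of this cluster had more of the tumor blood endothelial than of the large vessel markers, as given above. The median over members was -1.07 and that over all genes -0.02. All 8 GTPases and Irf1 were among the 14, joined by Ifih1, Zbp1, Oasl2, Cmpk2 and Ifit3. Zbp1 and Cmpk2 had means of 29.6 and 28.9 CPM in lung and of 6.58 and 4.92 CPM in primary tumors. They could have entered the test through the lungs, where they are high, which favours a fall. By DESeq2, which called 9.12% of all genes, 13 fell. Leaving out a library gave 11 to 15, and all endothelial clusters together gave 16, where 28.6% of all genes were called.

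Irf1 was at 55.2, 40.7, 51.1 and 34.9 CPM in the primary tumors, against 172 CPM or more in every lung, a log2 fold change of -2.03 ± 0.26 (edgeR adjusted p = 2.98e-05). Gbp2 was at 27.6, 43.2, 68.1 and 26.5 CPM (-2.19 ± 0.29, edgeR adjusted p = 3.89e-05) and Igtp at 23.0, 22.9, 27.0 and 12.9 CPM (-2.67 ± 0.36, edgeR adjusted p = 5.55e-05). These are the 3 members with the smallest p-values, and in each the tumors lay under every lung. Gbp4 fell by 2.03 ± 0.30, Gbp5 fell by 2.44 ± 0.41, Gbp3 fell by 1.67 ± 0.29 and Gbp7 fell by 1.54 ± 0.28 on the log2 scale (largest edgeR adjusted p of the 4, 0.000716).

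Oasl2, an oligoadenylate synthetase-like gene, was at 126, 90.0, 111 and 119 CPM in lung and at 23.0, 36.9, 48.2 and 50.0 CPM in primary tumors (-1.35 ± 0.25, edgeR adjusted p = 0.000947). Ifih1, which senses long double-stranded RNA, was at 48.6, 70.2, 72.6 and 77.9 CPM against 36.8, 21.6, 27.0 and 22.0 CPM (-1.37 ± 0.29, edgeR adjusted p = 0.00272). Neither overlapped. Irgm1 (-1.06 ± 0.26, edgeR adjusted p = 0.00663), Zbp1 (-2.09 ± 0.53), Cmpk2 (-2.08 ± 0.58), Ifit3 (-1.20 ± 0.32) and Iigp1 (-1.34 ± 0.46) passed as well, the last at an adjusted p of 0.0460 that became 0.0813 with the replicate block. The groups of Zbp1 and Iigp1 overlapped, and those of Irgm1, Cmpk2 and Ifit3 did not. Isg15 was at 73.6, 56.0, 80.9 and 91.8 CPM, inside the range of the lungs (0.03 ± 0.35, edgeR adjusted p = 0.966), Irf7 gave 0.44 ± 0.37 (edgeR adjusted p = 0.430), Bst2 -0.53 ± 0.31 (edgeR adjusted p = 0.238) and Cxcl10 -2.12 ± 1.03 (edgeR adjusted p = 0.160). The highest log2 fold change of the members was that of Cxcl9, 1.33 ± 0.69, which did not pass (edgeR adjusted p = 0.191).

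Lung metastasis against primary tumor gave no called member in these cells by edgeR or DESeq2 (0 of 30, with 4 at an unadjusted p under 0.05), where 3.92% of all genes were called. Gbp2 differed by a log2 of -0.10 ± 0.35 and Isg15 by -0.38 ± 0.40 there. With all endothelial clusters together 4 of 32 members were higher in metastases, where 12.7% of all genes were called, so the members' share was near that of all genes. The 3 comparisons share libraries and are not independent.

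**Figure D4:**
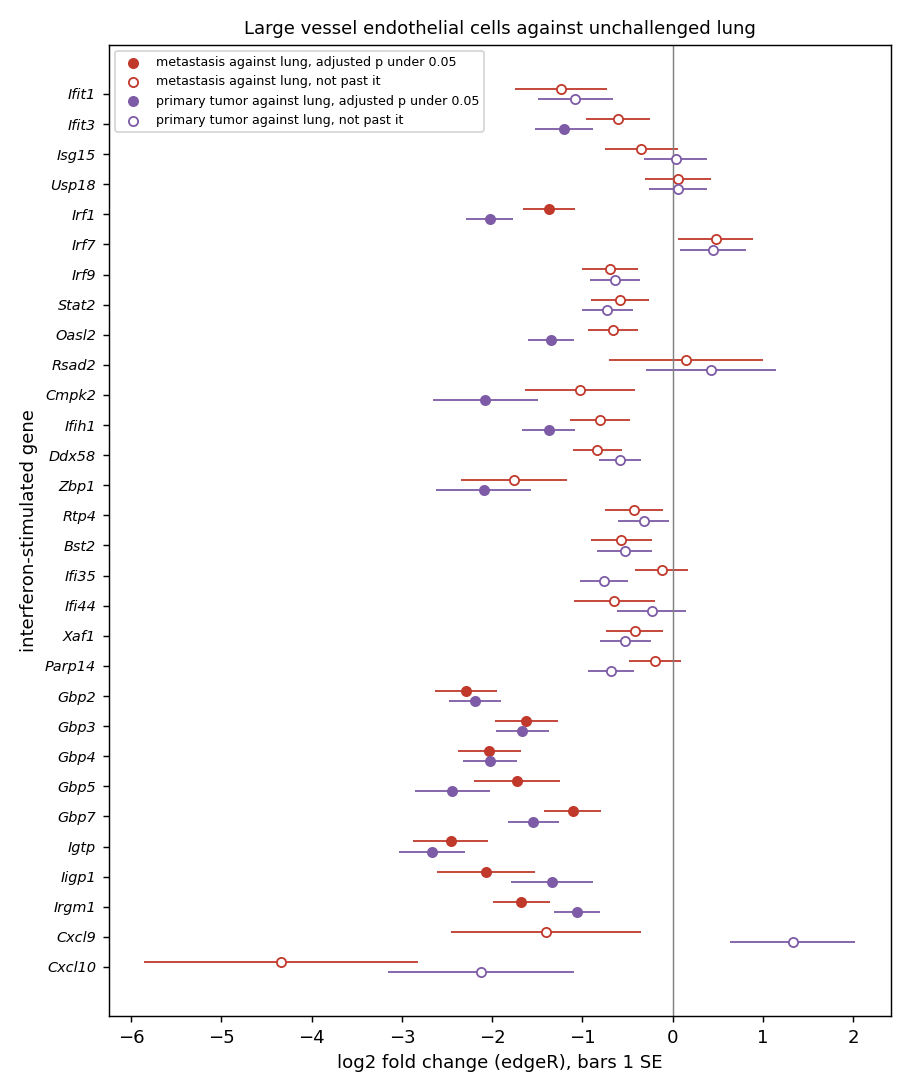
Log2 fold change with 1 SE (horizontal axis) of the 30 members tested in large vessel endothelial cells, metastasis and primary tumor each against unchallenged lung. Filled points passed an adjusted p of 0.05. All 8 GTPases and Irf1 are filled in both comparisons and lie left of 0. In primary tumor Isg15, Usp18, Irf7 and Rsad2 lie near or right of 0, and Cxcl9 lies furthest right, at 1.33.

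Other genes of the pathway fell alongside. Of 27 further interferon-stimulated genes tested, 7 fell and none rose in metastasis against lung, among them the GTPases Irgm2 (-2.44 ± 0.43) and Gbp6 (-2.41 ± 0.50), Ifi47 (-1.79 ± 0.29) and the immunoproteasome subunit Psmb9 (-1.36 ± 0.30). In primary tumor against lung 14 fell and 1 rose, with Irgm2 at -3.29 ± 0.39, Ifi47 at -2.64 ± 0.27 and Psmb9 at -2.02 ± 0.27. Psmb9 was at 170 to 189 CPM in the lungs, 63.6 to 77.6 CPM in metastases and 22.0 to 56.0 CPM in primary tumors. Gbp6 had means of 52.9 CPM in lung, 7.32 CPM in metastases and 11.1 CPM in primary tumors. It could have entered the test through the lungs, where it is high, which favours a fall. No interferon receptor was called in metastasis against lung, and 2 of 5 fell in primary tumor, Ifnar1 (-0.75 ± 0.26) and Il10rb (-0.76 ± 0.24). Socs3, a brake on the pathway, rose in primary tumor (1.85 ± 0.29), and Tmem173 (STING) rose both there (2.05 ± 0.32) and in metastasis (edgeR adjusted p = 0.0478).

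Immediate early and stress genes, which answer to handling of the tissue, moved too. Of the 7, 3 fell in primary tumor against lung, among them Jun, from 707 to 1122 CPM in lung to 115 to 210 CPM (-2.22 ± 0.30), and in metastasis against lung none of the 7 passed. Their part in the result was not tested.

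Capillary endothelial cells, the neighbours of the large vessel cells in the lung, gave no called member in metastasis against lung by edgeR or DESeq2 (0 of 27, with 1 at an unadjusted p under 0.05), where 0.427% of all genes were called. Their highest members were Bst2, Iigp1, Gbp7, Gbp4 and Irf1, with means of 543, 325, 297, 233 and 199 CPM, and the lowest were Ifit2, Oasl1, Oas3, Cxcl9 and Cxcl10, with means of 7.31, 3.69, 1.99, 1.90 and 0.438 CPM. Gbp2 was at 200, 144, 276 and 238 CPM in lung and at 328, 37.6, 100 and 101 CPM in metastases (replicates 1-3, 4, 5 and 6). The pooled library stood above all lungs and the other 3 under them, and the log2 fold change was -0.69 ± 0.46 (edgeR adjusted p = 0.578). Isg15 gave 0.03 ± 0.45, Ifit3 0.07 ± 0.25, Irf7 -0.33 ± 0.34 and Bst2 -0.41 ± 0.40, and Cxcl10 was at 0 to 2.31 CPM. With replicates 5 and 6 alone, 6 of 28 members fell, where 20.1% of all genes were called, so the members' share was near that of all genes. The other GTPase Gbp6 did fall, from 44.1 to 84.0 CPM in lung to 6.63 to 39.0 CPM (-2.05 ± 0.40, edgeR adjusted p = 0.0425).

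Whether the 2 endothelial types differed in their change was tested in 1 fit over both with the library as a block. Of 30 members, 4 differed, where 3.78% of all genes did. Igtp (1.70 ± 0.34 on the log2 scale, edgeR adjusted p = 0.00492), Gbp4 (1.16 ± 0.26, edgeR adjusted p = 0.0119), Gbp2 (1.22 ± 0.27, edgeR adjusted p = 0.0120) and Irf1 (0.90 ± 0.24, edgeR adjusted p = 0.0363) were less lowered in capillary than in large vessel cells.

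UMIs of 3 or more members were counted in a smaller share of the large vessel cells of the tumors than of the lungs. After each cell was thinned to 1000 UMIs, 42.0%, 38.8%, 47.1% and 50.0% of large vessel cells of the 4 lungs had UMIs of 3 or more members. In metastases it was 13.04%, 14.4% and 23.5%, and in primary tumors 20.0%, 19.2%, 17.7% and 13.5%. No tumor library came near the lungs. Shallower cells were left out, 0 to 72 per library, most of them in metastasis replicate 5. Without thinning the means were 81.5% in lung, 58.0% in metastases and 75.2% in primary tumors, at median depths of 1674 to 4917, 1826 to 4273 and 5014 to 6294.5 UMIs per cell. In MM cells, the type with the lowest summed level, thinned likewise, the share was 0.169% to 0.707%, at median depths of 1654 to 9106 UMIs. Most of those cells came from libraries of their own. Within the lung libraries the share was 0.515% of alveolar type 2 cells and 4.00% of club or secretory cells in replicate 5, and 14.8% and 10.3% in replicate 6, against 0.595% and 0% in lung metastasis replicate 5. Free RNA also gives UMIs, and its part in these shares was not tested.

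C1q macrophages of primary tumors, macrophages that express complement C1q, were higher in 4 members, of which Zbp1 was lower in large vessel cells of primary tumors. Against unchallenged lung 4 of 21 members rose and none fell (6 at an unadjusted p under 0.05), where 8.09% of all genes were called and 3.69% rose. The median over members was 0.58 and that over all genes -0.03. The 4 were Zbp1, Cxcl10, Irf7 and Isg15. Of these Cxcl10, Irf7 and Zbp1 were low in most lungs. They could have entered the test through the primary tumors, where they are high, which favours a rise. The fit held 4 libraries of lung and 2 of primary tumor, and DESeq2 called 3 members and 3.91% of all genes.

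Zbp1 was at 18.4, 8.46, 16.0 and 28.0 CPM in the lungs and at 62.2 and 60.8 CPM in the primary tumors (1.73 ± 0.32, edgeR adjusted p = 0.00323). Irf7 was at 11.1, 22.6, 16.0 and 34.4 CPM against 57.3 and 73.6 CPM (1.56 ± 0.39, edgeR adjusted p = 0.0206). In both the tumors stood above every lung. Isg15, a ubiquitin-like tag, was at 22.1, 14.1, 21.4 and 29.1 CPM against 167 and 45.1 CPM (2.26 ± 0.57, edgeR adjusted p = 0.0228). Cxcl10, which draws T and NK cells, was at 18.4, 2.82, 5.35 and 2.15 CPM against 27.1 and 56.1 CPM (3.01 ± 0.70, edgeR adjusted p = 0.0138), and with the replicate block it did not pass (adjusted p = 0.148).

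In these macrophages Gbp2 was at 14.7, 25.4, 13.4 and 20.5 CPM in lung and at 17.2 and 35.3 CPM in primary tumors (0.58 ± 0.45, edgeR adjusted p = 0.455), and Bst2 gave 0.69 ± 0.42 (edgeR adjusted p = 0.326). Ifit3, at 2.67 to 4.31 CPM in lung and at 14.9 and 22.8 CPM in primary tumors, was too low in too many libraries to enter the test. Cxcl9 was at 0 to 1.08 CPM in lung and at 8.02 and 88.0 CPM in primary tumors, and was not tested for the same reason. Both chemokines were higher in primary tumor replicate 4. Bst2, Parp14, Irf9, Stat2 and Irf1 had the highest mean levels of the members in these cells (207, 81.6, 57.6, 52.0 and 49.9 CPM) and Ifit3, Oasl1, Cmpk2, Ifi44 and Ifit3b the lowest (5.97, 5.22, 4.97, 3.25 and 0.846 CPM).

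Of 26 further interferon-stimulated genes tested, 3 rose and none fell in primary tumor C1q macrophages. They were Ifitm3, which blocks virus entry (2.60 ± 0.44, 199 to 401 CPM in lung against 1458 and 1953 CPM), Ifi27l2a (1.76 ± 0.43) and Lgals9 (1.06 ± 0.27). Socs3 rose (1.85 ± 0.36) and Irf8 fell by 1.42 ± 0.34 on the log2 scale. Summed MM markers were at 332 to 589 CPM in the lung cells and at 929 to 1016 CPM in those of primary tumors, and those of alveolar macrophages at 22.6 to 1816 CPM and 167 to 294 CPM. Their part in the result was not tested.

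Leaving out 1 library gave 2 to 4 called members, with 2 left without lung replicate 5 or 6 or either primary tumor library. Without 1 of the latter the primary tumor has 1 library, which the fit assumes to vary like the other groups, and the same holds wherever leaving out a library leaves a tissue with 1. Without the shallow libraries 2 of 19 were called, where 5.82% of all genes were, and with no filter on low counts 11 of 37, where 8.47% were.

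In metastasis against lung no member was called in C1q macrophages by edgeR (0 of 21, with 4 at an unadjusted p under 0.05), where 7.53% of all genes were called. By DESeq2 1 fell (3.28% of all genes called), as did 1 with the replicate block (7.07%). Isg15 was at 66.9, 0, 27.7 and 15.5 CPM in the metastases, the 0 being a library of 26 cells (0.80 ± 0.61, edgeR adjusted p = 0.481). Irf7 gave -0.36 ± 0.47, Gbp2 -0.84 ± 0.56, Cxcl10 1.32 ± 0.84 and Bst2 0.13 ± 0.37. Between metastasis and primary tumor 0 of 21 were called by edgeR and by DESeq2 and 12 had an unadjusted p under 0.05, where 0% of all genes were called. All 21 were lower in metastases, with a median of -0.81, and Irf7 had the smallest adjusted p (-1.92 ± 0.42, edgeR adjusted p = 0.131). With no filter on low counts 11 of 37 members and 1.25% of all genes were called.

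Whether C1q macrophages and large vessel endothelial cells differed in their change in the primary tumor was tested in 1 fit with the library as a block. Of 32 members 11 differed, all toward higher in the macrophages, where 7.31% of all genes differed. Of these 32, 11 were too low for the test in macrophages alone and entered through the endothelial libraries. Igtp, Ifit3, Gbp5 and Ifit1 were among them, so their macrophage values rest on low counts. Of the other 21 members 7 differed. The differences were 3.11 ± 0.43 for Gbp2 (edgeR adjusted p = 5.94e-05), 2.99 ± 0.47 for Igtp (edgeR adjusted p = 0.000249), 3.64 ± 0.64 for Zbp1 (edgeR adjusted p = 0.000625) and 2.38 ± 0.42 for Oasl2 (edgeR adjusted p = 0.000703) on the log2 scale. Cxcl10 (4.06 ± 0.76), Ifit3 (3.40 ± 0.64), Irf1 (1.67 ± 0.38), Isg15 (1.96 ± 0.50), Ifih1 (1.82 ± 0.46), Gbp5 (2.23 ± 0.62) and Ifit1 (2.67 ± 0.77) were the others. For Gbp2 and Irf1 the macrophage log2 fold changes were 0.58 ± 0.45 and -0.40 ± 0.28, neither of which passed, and for Isg15 the endothelial one was 0.03 ± 0.35.

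Monocytes were compared with large vessel cells likewise. In primary tumor against lung 8 of 37 members differed, all toward higher in monocytes, where 2.66% of all genes differed. They were Gbp2 (2.44 ± 0.41), Gbp7 (1.94 ± 0.36), Igtp (2.53 ± 0.52), Oasl2 (2.07 ± 0.45), Gbp3 (2.27 ± 0.49), Ifi35 (1.38 ± 0.31), Gbp5 (2.51 ± 0.58) and Ifih1 (1.52 ± 0.36), with edgeR adjusted p of 0.00691 to 0.0454. In metastasis against lung, monocytes and C1q macrophages did not differ in any of 25 members by edgeR (2 at an unadjusted p under 0.05, DESeq2 not run), where 1.85% of all genes differed.

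**Figure D5:**
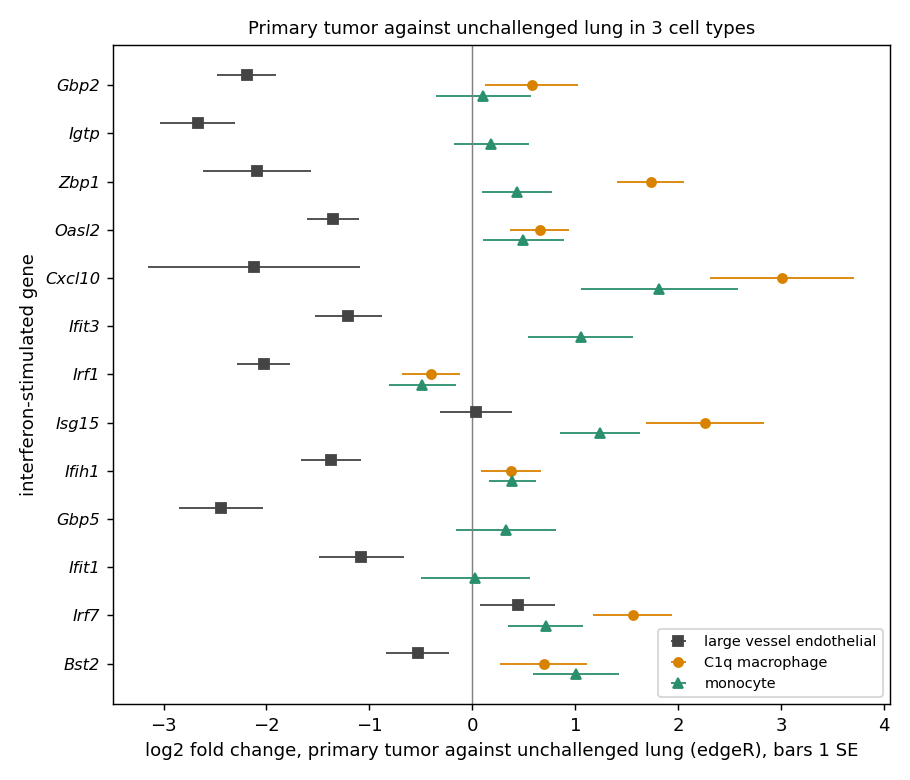
Log2 fold change with 1 SE (horizontal axis), primary tumor against unchallenged lung, for 13 members in large vessel endothelial cells (squares), C1q macrophages (circles) and monocytes (triangles). For Gbp2 the square lies at -2.19 and the circle at 0.58. A missing point is a gene too low to enter that type's test.

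In monocytes, 4 members differed between the tumor sites. In lung metastasis against primary tumor 4 of 32 members fell and none rose, where 1.52% of all genes were called and 0.866% fell. All 32 had a negative log2 fold change, with a median of -1.43 against 0.03 over all genes. The 4 were Isg15, Irf7, Bst2 and Xaf1, the last a gene tied to cell death. The highest means in monocytes were those of Bst2, Irf1, Zbp1, Irf7 and Parp14 (164, 145, 143, 136 and 122 CPM), and the lowest those of Oasl1, Ifit3b, Gbp4, Ifi44 and Iigp1 (8.24, 7.10, 6.69, 4.51 and 3.93 CPM). The metastases held 37 to 135 monocytes per library and the primary tumors 89 and 113.

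Isg15 was at 54.8, 7.01, 42.8 and 44.3 CPM in the metastases (replicates 1-3, 4, 5 and 6) and at 275 and 87.1 CPM in the primary tumors (-2.37 ± 0.49, edgeR adjusted p = 0.0230). Bst2 was at 127, 42.1, 150 and 34.5 CPM against 358 and 259 CPM (-1.99 ± 0.47, edgeR adjusted p = 0.0440). Neither overlapped. Irf7 was at 88.7, 35.0, 118 and 59.1 CPM against 194 and 257 CPM (-1.81 ± 0.42, edgeR adjusted p = 0.0424) and Xaf1 at 47.2, 7.01, 64.2 and 34.5 CPM against 121 and 117 CPM (-1.88 ± 0.42, edgeR adjusted p = 0.0337). With the replicate block Isg15 and Bst2 passed and Irf7 (adjusted p = 0.0854) and Xaf1 (adjusted p = 0.0599) did not.

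Ifit3 (-2.64 ± 0.75, edgeR adjusted p = 0.0915), Gbp2 (-1.20 ± 0.58, edgeR adjusted p = 0.338) and Cxcl10 (-2.22 ± 1.05, edgeR adjusted p = 0.331) did not pass. Of 27 further interferon-stimulated genes 4 fell, Ifi47 (-2.59 ± 0.47), Ifi204 (-1.44 ± 0.26), Ifi203 (-1.81 ± 0.41) and Lgals9 (-1.72 ± 0.39). Leaving out 1 library gave 0 to 7 called members, with 0 without metastasis replicate 4, metastasis replicate 6 or primary tumor replicate 1-3, 1 without primary tumor replicate 4 and 7 without the pooled metastasis library. With the interferon genes kept in the clustering 12 of 32 fell, where 2.8% of all genes were called. That clustering put 1248 of the 4976 monocytes with the alveolar macrophages, so it compared partly other cells. By DESeq2 6 of 37 fell, where 1.56% were called, and with no filter on low counts 21 of 37, where 2.23% were. Summed MM markers were at 432 to 10717 CPM in the metastasis monocytes and at 295 to 318 CPM in those of primary tumors. Summed classical monocyte markers were at 2043 to 4324 CPM and 9048 to 9525 CPM and nonclassical ones at 2310 to 5499 CPM and 1696 to 1939 CPM, and the part of these in the result was not tested.

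Against unchallenged lung no member was called in monocytes by edgeR in either site. In metastasis it was 0 of 32, with 18 at an unadjusted p under 0.05, where 0.389% of all genes were called, and 1 by DESeq2, where 0.676% were. In primary tumor it was 0 of 32, with 7 at an unadjusted p under 0.05 and 0 by DESeq2, where 2.57% were called. The lungs had Isg15 at 101, 90.3, 70.0 and 77.4 CPM. The medians over members were -0.94 and 0.54. Isg15 gave -1.13 ± 0.44 (edgeR adjusted p = 0.466) in metastasis and 1.24 ± 0.39 (edgeR adjusted p = 0.0941) in primary tumor, and with no filter on low counts 13 and 7 of 37 members were called, where 1.58% and 3.47% of all genes were.

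Neutrophils, which held the most Isg15, had more Isg15 and Isg20 in primary tumors. In primary tumor against lung 2 of 30 members rose and none fell, where 3.47% of all genes were called and 3.05% rose, so the members' share was near that of all genes. Isg15 was at 253, 220, 177 and 210 CPM in the lungs and at 1155 and 291 CPM in the primary tumors (1.84 ± 0.43, edgeR adjusted p = 0.0275). Isg20, an exonuclease that degrades RNA, was at 74.8, 97.9, 50.7 and 46.7 CPM against 265 and 171 CPM (1.91 ± 0.38, edgeR adjusted p = 0.0138). Both primary tumors stood above every lung, but with the replicate block neither passed (adjusted p = 0.114 and 0.144). The same primary tumor libraries, replicates 1-3 and 4, entered the tests of C1q macrophages, monocytes and neutrophils. In each of these types Isg15 was higher in replicate 1-3. Leaving out 1 library gave 0 to 2, with 0 without lung replicate 5, lung replicate 6 or primary tumor replicate 1-3, which held 33 cells.

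Isg15, Oasl2, Rsad2, Irf1 and Rtp4 had the highest means in neutrophils (315, 281, 253, 223 and 164 CPM), and Gbp5, Gbp4, Cxcl9, Iigp1 and Ifi44 the lowest (7.88, 6.67, 3.28, 2.32 and 0.935 CPM). Irf7 gave 0.73 ± 0.41, Ifit3 0.46 ± 0.53, Bst2 1.03 ± 0.45 and Gbp2 0.89 ± 0.34 there, with edgeR adjusted p of 0.214 to 0.718, and Cxcl10 was at 26.5 and 30.1 CPM against 0 to 18.1 CPM in lung. In metastasis against lung 0 of 30 were called by edgeR and by DESeq2 (5 at an unadjusted p under 0.05), where 5.6% of all genes were called, and Isg15 was at 327, 185 and 280 CPM. In metastasis against primary tumor 0 of 30 were called by edgeR, where 0.0402% of all genes were called, and 9 had an unadjusted p under 0.05. By DESeq2 1 fell, where 0.125% were called.

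In fibroblasts the member that passed the test was Isg15. In primary tumor against lung 1 of 36 rose and none fell, where 12.1% of all genes were called and 5.33% rose, so the members' share was under that of all genes. Isg15 was at 12.0, 26.5 and 37.3 CPM in the lungs (replicates 4, 5 and 6), at 75.4 and 98.0 CPM in metastases (replicates 5 and 6) and at 56.7, 75.6 and 65.6 CPM in primary tumors (replicates 4, 5 and 6). Every tumor library stood above every lung, with 1.34 ± 0.36 in primary tumor (edgeR adjusted p = 0.0424) and 1.65 ± 0.40 in metastasis (edgeR adjusted p = 0.0864). The call was lost without any 1 of the primary tumor libraries and without the shallow libraries, with libraries of at least 10 cells and with replicates 5 and 6 alone a single member fell in its place, and with the replicate block 2 members rose, where 12.6% of all genes were called. DESeq2 called 3, of which 2 rose, and 7.39% of all genes.

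No other member was called in fibroblasts. The highest means there were those of Bst2, Iigp1, Oasl2, Isg15 and Stat2 (121, 74.0, 58.5, 53.3 and 47.8 CPM), and the lowest those of Ifit3b, Cxcl9, Gbp4, Oas1a and Oas3 (6.36, 6.11, 5.89, 5.00 and 4.34 CPM). In primary tumor Gbp2 gave -1.34 ± 0.48 (edgeR adjusted p = 0.106), Cxcl10 3.34 ± 1.30 (edgeR adjusted p = 0.129), Ifit3 0.66 ± 0.45, Irf7 0.37 ± 0.40 and Bst2 0.53 ± 0.42. Different clusters held the fibroblasts of lung and of primary tumor, and the lung cells carried immune markers. Neutrophil markers, summed, were at 3.01 to 6734 CPM in lung fibroblasts and at 15.9 to 69.1 CPM in those of primary tumors, and Irf8 at 28.4 to 145 CPM against 0 to 22.1 CPM. Their part was not tested. In metastasis against lung 0 of 36 were called by edgeR (4 at an unadjusted p under 0.05), where 0.951% of all genes were called, and 2 rose by DESeq2, where 2.22% were called. In metastasis against primary tumor 0 of 36 by edgeR and by DESeq2 (2 at an unadjusted p under 0.05), where 0.978% were called.

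The remaining types that could be compared gave no called member in metastasis against lung by edgeR or DESeq2. Aerocyte capillary, alveolar macrophage and alveolar type 2 cells had 1 metastasis library of enough cells and were not compared. In T cells it was 0 of 31 (1 at an unadjusted p under 0.05), where 0.0114% of all genes were called, in NK cells 0 of 26 (2), where 0% were called, and in B cells 0 of 12 (1), where 0.0419% were called. In ciliated cells it was 0 of 24 (3), where 0.387% were called, and in club or secretory cells 0 of 5 (0), where 1.6% were called. In the Col2a1 and Cspg4 cluster, metastasis against primary tumor, it was 0 of 13 (2), where 0.14% were called. The number in brackets is that of members with an unadjusted p under 0.05.

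MM cells had the lowest levels and gave no called member between the sites by edgeR or DESeq2 (0 of 32, with 2 at an unadjusted p under 0.05), where 0.00698% of all genes were called, with 2 libraries of each. The summed members were at 271 and 235 CPM in metastases (replicates 4 and 5) and at 421 and 296 CPM in primary tumors. Bst2 was the member best seen, at 139 and 86.4 CPM against 182 and 109 CPM (-0.45 ± 0.42). Isg15 was at 16.4 and 7.56 CPM against 8.42 and 8.92 CPM, Gbp2 at 0.657 and 1.51 CPM against 3.95 and 2.12 CPM and Cxcl10 at 0 and 0.150 CPM against 0.786 and 1.11 CPM. Ifit3 gave -0.45 ± 0.47 and Irf7 -0.29 ± 0.61. Of the 32 members 31 had a negative log2 fold change, with a median of -0.52 against -0.03 over all genes, and the sample labelled primary tumor MM replicate 4 was the shallow one.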

How the data were processed

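The count table holds UMI counts per gene and cell that the authors made from 10x libraries with Cell Ranger 6.1.1 (GRCm38) and deposited after filtering cells on genes, mitochondrial and ribosomal shares with Seurat 3.2.2. The table had 110283 barcodes, and 5 of 24 library names held the same cells as another, so that 9924 barcodes were counted once. Cells were clustered with Seurat 5.3.0 (2000 variable genes of which 34 interferon genes were left out, 17 components, 20 neighbors, resolution 0.5), giving 23 clusters, named where at least 3 markers of a type were raised. A named cluster also had to hold at least 50 cells. Counts were summed per library and type. Libraries with at least 20 cells, and tissues with at least 2 such libraries, were tested with edgeR 4.0.16 (filterByExpr, TMM, quasi-likelihood F test, Benjamini-Hochberg over all genes tested), in 1 fit per type over the host tissues, with MM cells apart. DESeq2 1.42.0 was an alternative. R was 4.3.3 and Python 3.11.15. The scripts were tested on simulated data.

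The members, the gene lists and the rule for naming genes were chosen with earlier results of these data known. By that rule all called members are named, Isg15, Ifit3, Irf7, Bst2, Gbp2 and Cxcl10 are given in the comparisons described in detail, and the 5 highest and lowest members of each such type. A gene of the pathway that the rule also names is not reported here. The cell annotation gives a sequencing run that is shared by replicates of the same number, with replicates 5 and 6 in 1 run, and the number, not the run, was used as a replicate block in an alternative fit, and the deviations of libraries with the same number correlated at -0.249 to 0.376. Library totals ran from 1777036 to 60339415 UMIs, which limits small types most, and intervals and the limit of 3 counts for a count of 0 cover counting error only. Promoters are those of RefSeq, GRCm38.p6.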

Additional observations from a re-analysis of the deposited data

Results flagged for a closer look

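In 95 groups of 4 or more libraries the level of a member was looked at for a library standing apart from the others, and 8 were found, where chance gives about 1 in 20 groups. In large vessel endothelial cells unchallenged lung replicate 4 had the highest Irf1 (220 CPM) and the lowest Igtp (72.0 CPM) of the lungs, unchallenged lung replicate 1 had Cxcl10 at 377 CPM, and primary tumor replicate 1-3 had Iigp1 at 350 CPM. In C1q macrophages lung metastasis replicate 4, with 26 cells, had Zbp1 at 8.35 CPM. In monocytes the pooled metastasis library had Cxcl10 at 32.1 CPM where the other 3 were at 0. In neutrophils unchallenged lung replicate 4 had Ifit3 at 215 CPM and replicate 5 had Cxcl10 at 18.1 CPM.

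The change between tissues differed between cell types for 23 pairs of a member and a comparison, tested by the interaction in edgeR. In primary tumor against unchallenged lung, C1q macrophages lay above large vessel endothelial cells by a log2 difference of 3.11 for Gbp2, 2.99 for Igtp, 3.64 for Zbp1, 2.38 for Oasl2, 4.06 for Cxcl10, 3.40 for Ifit3, 1.67 for Irf1, 1.96 for Isg15, 1.82 for Ifih1, 2.23 for Gbp5 and 2.67 for Ifit1. Igtp, Ifit3, Gbp5 and Ifit1 were too low to be tested in the macrophages alone. Monocytes lay above them by 2.44 for Gbp2, 1.94 for Gbp7, 2.53 for Igtp, 2.07 for Oasl2, 2.27 for Gbp3, 1.38 for Ifi35, 2.51 for Gbp5 and 1.52 for Ifih1. In lung metastasis against unchallenged lung, capillary endothelial cells lay above large vessel cells by 1.70 for Igtp, 1.16 for Gbp4, 1.22 for Gbp2 and 0.90 for Irf1.

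Outside the comparisons, a cluster of 31 cells left without a name had summed members at 1960 CPM in unchallenged lung replicate 4. It held fewer than the 50 cells set for a name, and 7 of 7 B cell markers were raised in it. Cells that clustered with MM cells in the host cell library of lung metastasis replicate 5 had 269 CPM, inside the range of the sorted MM cells.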

How the results depend on the processing

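Over 1883 refits of single members 1752 kept their direction and side of the threshold, 97 lost and 34 gained a call, and none turned sign while called. Of 311 refits of the number of called members, 64 moved it by over 1.5 times, and for these the cause was not tested unless the setting itself removes libraries. With no filter on low counts it was 1 in B cells, 2 in ciliated cells, 1 (metastasis against lung), 11 (primary tumor against lung) and 11 (metastasis against primary tumor) in C1q macrophages, 2, 4 and 1 in fibroblasts, 13, 7 and 21 in monocytes, 2 (metastasis against lung) and 1 (metastasis against primary tumor) in neutrophils, and 2 in large vessel cells (metastasis against primary tumor), where 0.261% to 11.6% of all genes were called. With the replicate block it was 1 in C1q macrophages (metastasis against lung), 2 in fibroblasts and 0 in neutrophils (primary tumor against lung) and 2 in monocytes (metastasis against primary tumor), and no other number moved that far. With interferon genes kept in the clustering it was 1 in C1q macrophages and 1 in neutrophils (metastasis against lung) and 1 and 12 in monocytes (primary tumor against lung and metastasis against primary tumor). That clustering also put 893 of 2134 NK cells, 599 of 1691 T cells and 491 of 2748 neutrophils with the alveolar macrophages. With the main clustering 7.53% of all genes were called in C1q macrophages and 5.6% in neutrophils (metastasis against lung). Without the shallow libraries, chosen after seeing the data, it was 1 and 2 in C1q macrophages, 1 and 0 in fibroblasts (metastasis and primary tumor, each against lung) and 0 in neutrophils (primary tumor against lung). DESeq2 gave 1 in C1q macrophages, 2 in fibroblasts and 1 in monocytes (metastasis against lung), 3 in fibroblasts (primary tumor against lung) and 1 in neutrophils (metastasis against primary tumor). Replicates 5 and 6 alone gave 6 in capillary cells, all endothelial clusters together gave 0 (metastasis against lung) and 4 (metastasis against primary tumor), and libraries of at least 10 cells gave 1 in neutrophils. Where the share of all genes called under a setting is not given, here or above, the count does not show an excess of members.

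Leaving out 1 library gave, for metastasis against lung, 3 to 11 in large vessel cells, 0 to 2 in ciliated cells, 0 to 1 in C1q macrophages, fibroblasts and monocytes and 0 in neutrophils, B, NK, T, capillary and club cells. For primary tumor against lung it gave 11 to 15 in large vessel cells, 2 to 4 in C1q macrophages, 0 to 3 in fibroblasts, 0 to 2 in neutrophils and 0 in monocytes. For metastasis against primary tumor it gave 0 to 7 in monocytes, 0 to 1 in C1q macrophages and MM cells, and 0 in large vessel cells, fibroblasts, neutrophils and the Col2a1 and Cspg4 cluster. Where this left a tissue with 1 library, that library is assumed to vary like the other groups. The share of all genes called in each of these refits is not given, so the counts do not show an excess of members. With UMIs of all libraries added up the summed members were at 1502 CPM in C1q macrophages and 1198 CPM in ciliated cells. The share of large vessel cells with 3 or more members was 19.6%, 5.71% and 7.03% in lung, metastasis and primary tumor after thinning to 500 UMIs and 81.5%, 58.0% and 75.2% without thinning. Types with few cells per library limit what could be seen.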
